A study of Mus musculus with 12 samples.

Results

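Neutrophils store antimicrobial proteins in granules that are filled in sequence as the cell matures in the bone marrow. The azurophil proteins neutrophil elastase, myeloperoxidase, proteinase 3 and cathepsin G are made first, by promyelocytes, and their mRNAs are largely gone from the mature cell. The specific granule proteins are made later, by myelocytes and metamyelocytes, while the cytosolic calcium-binding pair S100A8 and S100A9 is abundant in neutrophils up to their release into blood and beyond. The 10 genes described here cover both ends of that sequence, with 4 early (azurophil) members, Elane, Mpo, Prtn3 and Ctsg, and 6 late members, the specific granule genes Ngp, Camp, Ltf and Lcn2 and the cytosolic S100a8 and S100a9. They were chosen by symbol, as known neutrophil genes and with FPKM values of these mice already seen, from the 22923 gene symbols measured, and each symbol had 1 row in every library. Their levels and differences are therefore a description, and nothing is supported with them.

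RNA was sequenced from the proximal hind limb muscle of male FVB mice (FVB/N in the study's methods) aged 22 weeks, 3 libraries in each of 4 groups. The mice were WT (titled Flox) or αB-crystallin/HspB2 knockout (KO), each genotype given either normal chow or a high fat diet, and the study asked how diet and the loss of the 2 chaperone genes bear on muscle RNA. The KO was a deletion in the whole animal, not in muscle alone, and the WT mice came from the same heterozygous matings. Levels are FPKM, fragments scaled by transcript length and by the mapped fragments of the library, so they may be compared between genes, but the number of reads behind them is unknown. The genotype field of 6 libraries went against their titles (all 3 WT high fat libraries, 1 KO chow and 2 KO high fat libraries). Cryab, which encodes αB-crystallin, was 412 to 837 FPKM in the 6 libraries titled WT and 0.845 to 1.75 FPKM in the 6 titled KO. Hspb2 was 81.5 to 103 against 0.353 to 1.92 FPKM, so the titles set the groups.

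The muscle label was checked against 8 skeletal muscle genes, led by Acta1, Ckm and Tnnt3, which summed to between 34298 and 80711 FPKM in every library. Acta1, the skeletal actin gene, was nevertheless listed at 0 in WT chow replicate 1 and KO high fat replicate 2 and Myh4 was listed at 0 throughout. These are bulk samples of mixed cells, in which fewer cells of a type and less RNA per cell cannot be told apart. Genes of other tissues stood out in single libraries. Mature B and T cell genes, led by Cd79a, Cd79b and Ms4a1, summed to 75.3, 85.9 and 86.3 FPKM in WT chow replicate 2 and KO chow replicates 1 and 3 and to between 0.509 and 6.07 FPKM in the other 9. Hair and skin genes, led by Krt10, Krt71 and Krt25, summed to 47.3 FPKM in WT high fat replicate 2 and at most 1.84 FPKM elsewhere. The osteoblast gene Bglap was 21.5 FPKM in WT high fat replicate 3 and at most 0.151 FPKM elsewhere.

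The members lie on 6 chromosomes, and several are neighbours. On GRCm38, S100a8 (chr3:90668978-90670035, plus strand) and S100a9 (chr3:90692632-90695721, minus strand) are 22596 bp apart, and Prtn3 (chr10:79874476-79883174) ends 3072 bp before Elane (chr10:79886247-79888215) on the plus strand. Camp (chr9:109847379-109849617, minus strand), Ngp (chr9:110419747-110423012, plus strand) and Ltf (chr9:111019271-111042767, plus strand) share 1.2 Mb of chromosome 9, which begins 59.1 Mb beyond the deleted Cryab gene. Lcn2 (chr2:32384633-32388252, minus strand), Mpo (chr11:87793581-87804413, plus strand) and Ctsg (chr14:56099881-56102574, minus strand) each stand alone.

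The DNA before the RefSeq starts of the early members shared a short sequence. All 4 early members carried AGGAAGT, the core of sites for PU.1, an ETS factor that myeloid cells need, within the 250 bases before the RefSeq start (GRCm38.p6 promoter table, both strands searched, all 10 members matched). It is shown here with 10 bases on each side, on the gene's own strand in each case, with the motif in capitals.

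Elane: tgtcccagggAGGAAGTagggctgtgg
Prtn3: aactggaaggAGGAAGTgggacccaca
Ctsg: gaggaagaaaAGGAAGTagtcacctgt
Mpo: ggagagagagAGGAAGTtgcctttgtc

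The 4 stretches lie at chr10:79886218-79886244, chr10:79879563-79879589, chr14:56102764-56102790 and chr11:87793551-87793577, with the motif ending 78, 88, 200 and 217 bases before the RefSeq start. The gene spans given above are from GENCODE, whose starts can differ, and the Prtn3 stretch lies inside the GENCODE span of its gene. Among the late members only S100a8 held the same letters, on the opposite strand. The motif was found in 7.69% of all 32851 windows of this length. TTNNGNAA, a loose form of the site of C/EBP factors, was in 0 of 4 early and 5 of 6 late members (not Camp) and in 36.8% of all windows. The sites nearest the start of 3 late members are shown on the strand that matched, with the motif in capitals.

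Ltf: ggcaggcctaTTGGGCAAtagggtgggg
S100a8: atggacttggTTAGGAAAcagaggctgt
S100a9: ctctgatgttTTGTGAAAttcccagccc

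They lie at chr3:90668944-90668971 for S100a8, chr3:90695834-90695861 for S100a9 and chr9:111019207-111019234 for Ltf. TATAAA was in the windows of S100a8 and Ctsg (12.4% of all windows), and AACGG, a MYB-type site, in those of Elane and Prtn3 (14.5%). The 4 motifs were picked after these sequences had been read, their matches did not overlap one another, and a match is a run of letters, not a bound site.

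S100a8 and S100a9, whose proteins pair as calprotectin, had the highest levels of the 10. S100a8 was 522, 59.0 and 197 FPKM in WT high fat replicates 1, 2 and 3, against 0.705, 13.8 and 2.21 FPKM in WT chow, 59.4, 7.33 and 17.3 FPKM in KO chow and 18.9, 10.2 and 7.05 FPKM in KO high fat libraries. All 3 WT high fat libraries stood above every WT chow and every KO high fat library, and the lowest of them was level with the highest KO chow library. S100a9 was 378, 39.9 and 148 FPKM in the WT high fat group, against 1.09, 7.61 and 2.37 FPKM in WT chow, 42.5, 5.22 and 16.0 FPKM in KO chow and 14.8, 2.07 and 2.19 FPKM in KO high fat libraries. The ratio of S100a8 to S100a9 was between 1.33 and 1.48 in the WT high fat libraries and between 0.647 and 4.93 in the others.

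The specific granule genes showed the same pattern at lower levels. Ngp, neutrophilic granule protein, was 106, 10.2 and 38.2 FPKM in the WT high fat libraries, 0.0508, 2.24 and 0.0945 FPKM in WT chow, 9.82, 0.793 and 2.35 FPKM in KO chow and 2.77, 0.171 and 0.152 FPKM in KO high fat libraries. Camp, the precursor of the antimicrobial peptide cathelicidin, was 94.6, 9.08 and 34.9 FPKM in WT high fat, 0.113, 1.58 and 0.209 FPKM in WT chow, 8.62, 0.780 and 2.52 FPKM in KO chow and 2.90, 0.282 and 0.221 FPKM in KO high fat libraries. Both genes ran from under 0.2 FPKM to about 100 FPKM over the 12 libraries, with the WT high fat group above the other 3. The margin between WT high fat replicate 2 and KO chow replicate 1 was small, 10.2 against 9.82 FPKM for Ngp and 9.08 against 8.62 FPKM for Camp.

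Ltf, the iron-binding lactoferrin, was 24.1, 2.44 and 8.48 FPKM in WT high fat, 0, 0.703 and 0.109 FPKM in WT chow, 2.15, 0.281 and 0.492 FPKM in KO chow and 0.770, 0.127 and 0.0333 FPKM in KO high fat libraries. Lcn2, a siderophore-binding lipocalin that other cell types also make, was 35.3, 4.96 and 14.5 FPKM in WT high fat, 0.688, 1.33 and 0.701 FPKM in WT chow, 3.39, 0.878 and 2.47 FPKM in KO chow and 2.03, 1.27 and 1.29 FPKM in KO high fat libraries. For Ltf and Lcn2 too the 3 WT high fat libraries were above all 9 others. Lcn2 had the smallest spread of the late members, and its lowest value in any library was 0.688 FPKM.

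**Figure D1:**
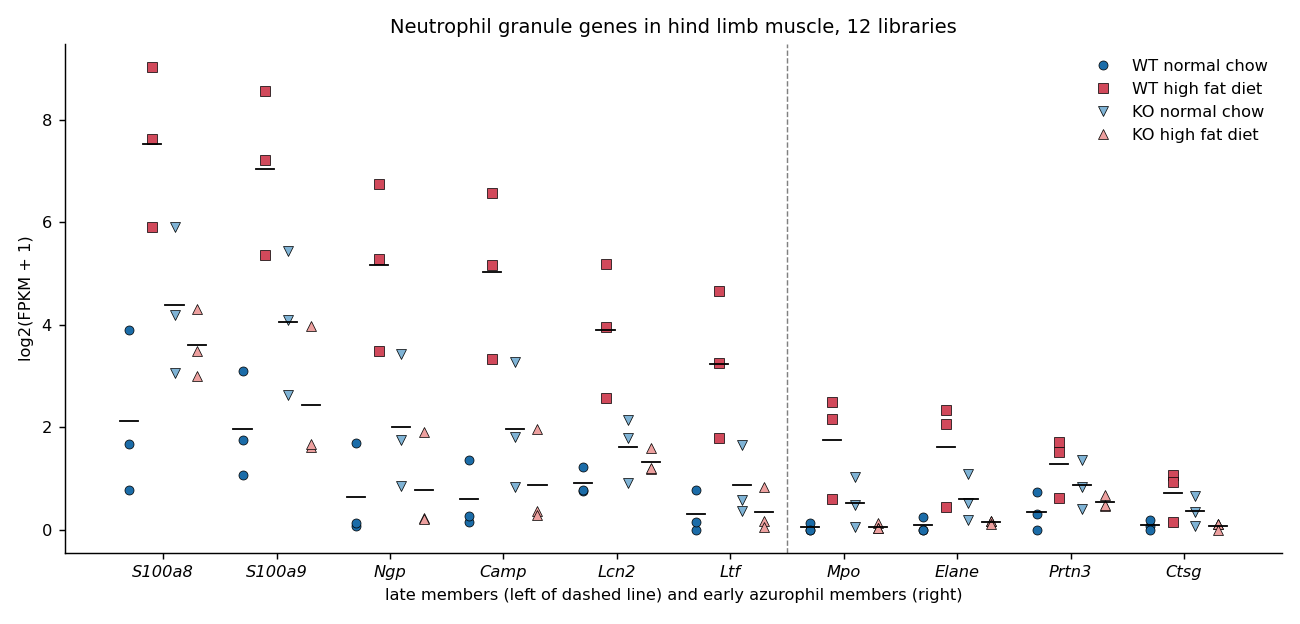
Level of each of the 10 members, as log2(FPKM + 1), in the 12 libraries, 3 per group; each symbol is 1 library and each short line the mean of a group's 3 log2 values. The late members reach 522 FPKM (S100a8) and the early members no more than 4.59 FPKM (Mpo), and the WT high fat libraries hold the highest value of each.

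The early members were measured near the lower end of the scale. Mpo, myeloperoxidase, was 4.59, 0.505 and 3.45 FPKM in WT high fat, 0, 0.0958 and 0 FPKM in WT chow, 1.03, 0.0426 and 0.394 FPKM in KO chow and 0.0920, 0.0182 and 0.0219 FPKM in KO high fat libraries. Elane, neutrophil elastase, was 4.05, 0.365 and 3.20 FPKM in WT high fat, 0, 0.189 and 0 FPKM in WT chow, 1.12, 0.140 and 0.434 FPKM in KO chow and 0.123, 0.119 and 0.0732 FPKM in KO high fat libraries. In both, replicates 1 and 3 of the WT high fat group were close to each other and replicate 2 was below KO chow replicate 1.

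Prtn3, proteinase 3, was 2.27, 0.528 and 1.88 FPKM in WT high fat, 0, 0.230 and 0.659 FPKM in WT chow, 1.58, 0.318 and 0.778 FPKM in KO chow and 0.382, 0.588 and 0.392 FPKM in KO high fat libraries. Ctsg, cathepsin G, was 1.11, 0.102 and 0.912 FPKM in WT high fat, 0.0515, 0.136 and 0 FPKM in WT chow, 0.577, 0.0503 and 0.277 FPKM in KO chow and 0.0866, 0.0865 and 0 FPKM in KO high fat libraries. For these 2 genes the WT high fat and WT chow groups overlapped, and Prtn3 also overlapped between the 2 high fat groups.

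All 10 members ranked the same 2 libraries first and second, WT high fat replicate 1 and WT high fat replicate 3. The next place went to KO chow replicate 1 for 6 members and to WT high fat replicate 2 for the other 4, and KO chow replicate 1 was among the 4 highest libraries for all 10. The mean of the WT high fat group was 20.1 (Lcn2) to 72.8 (Camp) times that of the WT chow group for the late members and 5.26 (Prtn3) to 89.2 (Mpo) times for the early ones. These ratios come from unequal mice, since replicate 1 alone held 64.5% to 68.9% of the WT high fat sum for each late member and 48.6% to 53.7% for each early member.

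Beside the high members, WT high fat replicate 1 also had 3.20 FPKM of Myh7, the slow myosin gene, against 138 and 111 FPKM in the other WT high fat libraries, and 1.40 FPKM of the fat cell hormone gene Adipoq, against 28.9 and 94.8 FPKM. Myh7 was picked after its values were seen. Whether the cut of muscle taken from this mouse bears on the granule genes was not tested.

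The question of diet in WT mice was put to a limma fit of log2(FPKM + 1) over the 11945 genes with at least 1 FPKM in at least 3 libraries. Of the members 9 passed this filter, and Ctsg, with 1 library at 1 FPKM or more, did not. Elane, Mpo and Prtn3 passed with 3 libraries each and Ltf with 4, the 3 WT high fat libraries and KO chow replicate 1. Since these genes passed through their high libraries, counts, ranks and differences over the 9 are given as a description. The late members led the whole table by size. S100a8 had the largest positive difference of the 11945 genes, 5.41 on the log2(FPKM + 1) scale (SE 0.96, limma adjusted p = 0.0802), followed by S100a9 at 5.07 (SE 0.95, limma adjusted p = 0.0906). Ngp (4.54), Camp (4.43), Lcn2 (2.99) and Ltf (2.92) took places 4, 5, 10 and 13 of the same order, and the early members differed by 1.70 (Mpo), 1.54 (Elane) and 0.94 (Prtn3), against a median of -0.01 over all genes tested.

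None of the 9 passed a limma adjusted p of 0.05, where 12 of all genes tested did (0.1%), and all 9 were higher at an unadjusted p under 0.05, as were 4.42% of all genes. All 6 late members, Elane and Mpo did not overlap between the groups, as 6.2% of the genes tested did not in that direction. Leaving out the lowest library of the higher group can only raise the difference, so counts from such a fit are a description. Replicate 2 of the WT high fat group was that library, lowest in every member, and the calls moved with it. Without it the 2 remaining libraries against 3 gave 8 of 9 members an adjusted p between 0.00879 and 0.0363, and only Prtn3 stayed above the threshold (0.139), in a fit that called 32 genes in all, whereas without replicate 1 or without replicate 3 the count was 0.

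In KO mice the same diet went with lower mean levels of all 10 genes, 0.0900 (Mpo) to 0.682 (Lcn2) times those on chow. The log2 differences of the 9 tested members lay between -1.63 (S100a9, SE 0.95) and -0.29 (Lcn2, SE 0.52), beside a median of 0.03 over all genes. By limma 0 members and 0 of the 11945 genes had an adjusted p under 0.05 (0.0%), and 0 members were below 0.05 unadjusted, as were 4.73% of all genes in this direction. Only Elane did not overlap between the 2 KO groups, where 6.14% of all genes did not. The 95% interval for S100a8 ran from -2.89 to 1.32, so that neither a fall of several-fold nor a rise was outside it. All 9 differences stayed below 0 with any 1 KO library left out, but not without the chow libraries high in B and T cell genes. KO chow replicates 1 and 3 were the libraries with 85.9 and 86.3 FPKM of B and T cell genes, and without them and WT chow replicate 2 the 9 differences ran from -0.21 to 0.54 (limma adjusted p = 1 for all 9), 5 of them above 0, with 1 KO chow library left. Without KO chow replicate 1 alone the 9 differences ran from -0.94 (S100a9) to -0.02 (S100a8).

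**Figure D2:**
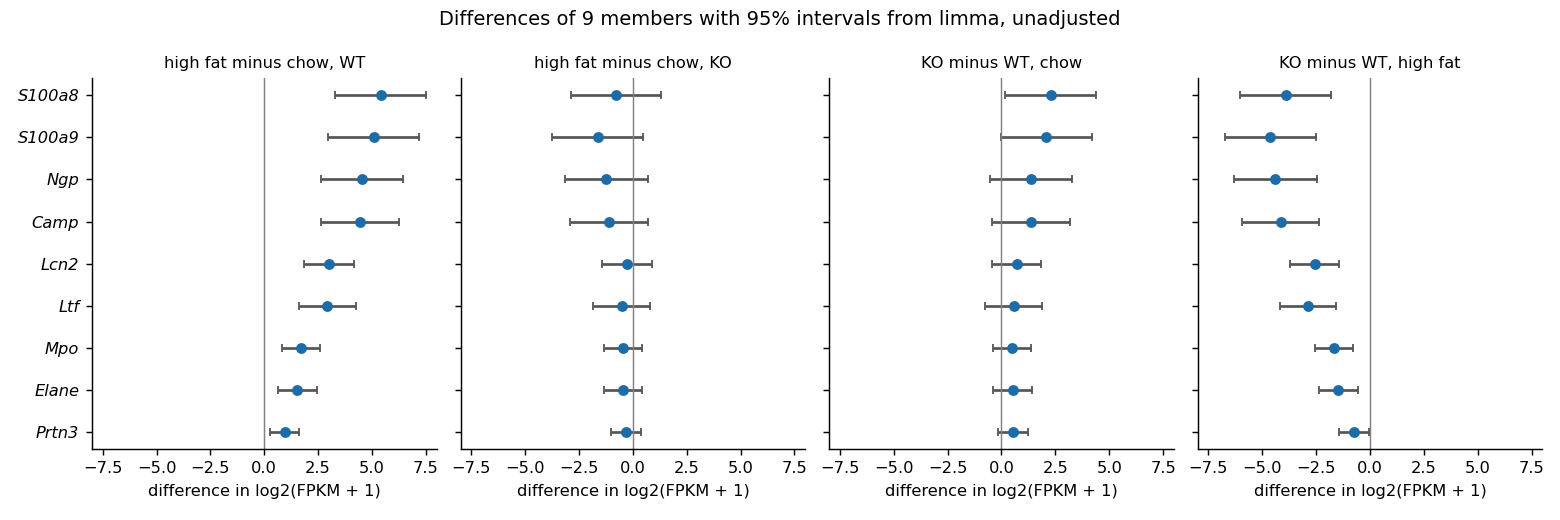
Differences in log2(FPKM + 1) for the 9 members that passed the filter (points) with unadjusted 95% intervals from limma (bars), in 4 panels: high fat minus chow in WT and in KO mice, and KO minus WT on chow and on high fat diet. The 4 panels share groups of 3 libraries, and the intervals of all 9 members lie above 0 in the first panel and below 0 in the last, with S100a8 at 5.41 and -3.92.

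Between the genotypes, the direction on chow was opposite to that on high fat diet. On normal chow the KO means were 2.47 (Lcn2) to 15.3 (Mpo) times the WT means, with log2 differences between 0.48 (Mpo) and 2.28 (S100a8, SE 0.96, limma adjusted p = 0.284) against a median of -0.03 over all genes. No member was called, as 0.0586% of all genes were, 1 of 9 members (S100a8) was higher at an unadjusted p under 0.05, where 6.73% of genes were, and in 0 of 10 members were the groups apart, where 8.15% of all genes were. In every late member the highest WT chow library was replicate 2, which had 75.3 FPKM of B and T cell genes, and the highest KO chow library was replicate 1, with 85.9 FPKM. Without these and KO chow replicate 3 the differences were 0.03 to 1.83 (limma adjusted p = 0.997 for all 9), where the 1 KO chow library left is assumed to vary like the other groups, and the part of the lymphoid tissue in these values was not tested.

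On high fat diet the WT means were 11.9 (Lcn2) to 50.0 (Ngp) times the KO means for the late members and 3.44 (Prtn3) to 64.7 (Mpo) times for the early. KO minus WT was -4.62 for S100a9 (SE 0.95, limma adjusted p = 0.0688), -4.39 for Ngp (SE 0.87, limma adjusted p = 0.0677) and -4.16 for Camp (SE 0.82, limma adjusted p = 0.0677). S100a8 (-3.92), Ltf (-2.88), Lcn2 (-2.58), Mpo (-1.68), Elane (-1.48) and Prtn3 (-0.75) were lower in KO as well, against a median of -0.01 over all genes, and Cryab and Hspb2 themselves are among the few genes further down. No member was called, as 0.109% of genes were. Of the tested members, 9 of 9 were lower at an unadjusted p under 0.05, as were 6.45% of genes, and for 9 of 10 (not Prtn3) the groups did not overlap, as for 10.7% of genes. Without WT high fat replicate 2, again the lowest of the higher group, 6 of the 9 were called, among 28 genes in all. The 6 were Camp, Elane, Lcn2, Ltf, Mpo and Ngp (limma adjusted p between 0.00715 and 0.0422).

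The test of whether the diet difference itself depended on genotype gave -6.70 for S100a9 (SE 1.35, limma adjusted p = 0.408) and -6.20 for S100a8 (SE 1.35, limma adjusted p = 0.425). All 9 interaction terms were negative, from -6.70 to -1.27, and 9 of 9 were lower at an unadjusted p under 0.05, as were 2.7% of all genes. No member and none of the 11945 genes was called (0.0%). All 5 comparisons draw on the same 12 libraries and share groups, so that the high WT high fat libraries enter 3 of them.

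The early and late members were then summed in each library to describe their balance. The 4 early members summed to 12.03, 1.50 and 9.44 FPKM in the WT high fat libraries, 0.0515, 0.651 and 0.659 FPKM in WT chow, 4.31, 0.551 and 1.88 FPKM in KO chow and 0.683, 0.811 and 0.487 FPKM in KO high fat libraries. The 6 late members summed to 1160, 126 and 441 FPKM in WT high fat, 2.65, 27.3 and 5.69 FPKM in WT chow, 126, 15.3 and 41.1 FPKM in KO chow and 42.2, 14.1 and 10.9 FPKM in KO high fat libraries. Late mRNA exceeded early mRNA in every library, and Pearson's r between the 2 sums on the log2 scale was 0.93 over the 12 libraries. Both sums of a point come from 1 library, and libraries of a group share diet and genotype.

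The early share of the summed FPKM was 1.03%, 1.18% and 2.09% in WT high fat replicates 1, 2 and 3 (1.43% ± 0.577, SD, n = 3), the lowest group mean when all 4 early members were counted but not without Prtn3. It was 3.31%, 3.48% and 4.38% in KO chow (3.72% ± 0.577, SD, n = 3), which did not overlap with WT high fat as long as Prtn3 was counted, and 1.59%, 5.44% and 4.26% in KO high fat libraries. In WT chow it was 1.91%, 2.33% and 10.4%, but there the early sum of replicate 1 was Ctsg alone and that of replicate 3 Prtn3 alone. WT high fat replicate 2 and KO chow replicate 1 had the same late sum, 126 FPKM, and early sums of 1.50 and 4.31 FPKM. Without Prtn3 the mean shares were 1.14% in WT chow, 1.10% in WT high fat, 2.08% in KO chow and 1.04% in KO high fat libraries, and the KO chow libraries, at 1.50% to 2.62%, overlapped with the WT high fat libraries at 0.767% to 1.68%. The place of WT high fat as the lowest group in early share therefore rests on Prtn3, while the KO chow mean stayed above it without Prtn3.

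**Figure D3:**
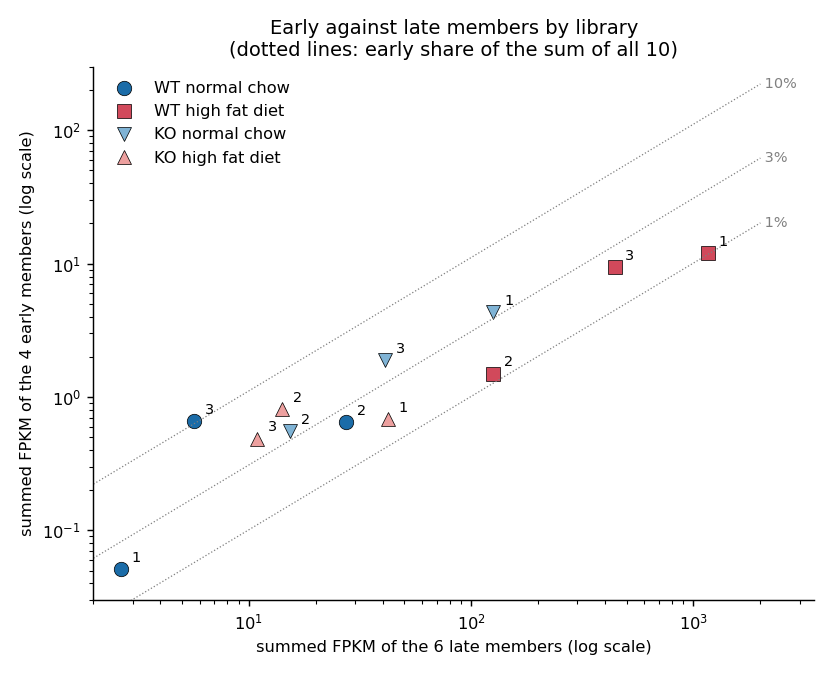
Summed FPKM of the 4 early members against that of the 6 late members, both on log scales, with 1 symbol per library numbered by replicate and dotted lines at early shares of 1%, 3% and 10% of the sum of all 10. The WT high fat libraries lie between 1.03% and 2.09%, the KO chow libraries between 3.31% and 4.38% (ranges that overlap without Prtn3), and WT high fat replicate 2 and KO chow replicate 1 sit at one late level of 126 FPKM.

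Within the WT high fat group the 2 classes scaled differently from mouse to mouse. Replicate 1 over replicate 3 was between 2.43 and 2.85 for all 6 late members and between 1.21 and 1.33 for all 4 early members, with no value of either class inside the range of the other. Replicate 1 over replicate 2 was 7.11 to 10.4 for the late members and 9.10 to 11.1 for Mpo, Elane and Ctsg, with Prtn3 at 4.30. Replicate 3 thus had more early mRNA for its late mRNA than either other mouse of its group. It was also the highest library for 4 of 8 bone cell genes, Bglap, Bglap2, Sp7 and Ibsp. Bglap2 was 17.1 FPKM there, and no other library had more than 0.134 FPKM. Acp5 and Ctsk, the bone list's other leading genes, were highest in KO chow replicate 1 and KO high fat replicate 2. Dmp1 was highest in KO high fat replicate 1 and Phex in WT chow replicate 1. Whether bone or marrow in the piece bears on the early members was not tested.

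**Figure D4:**
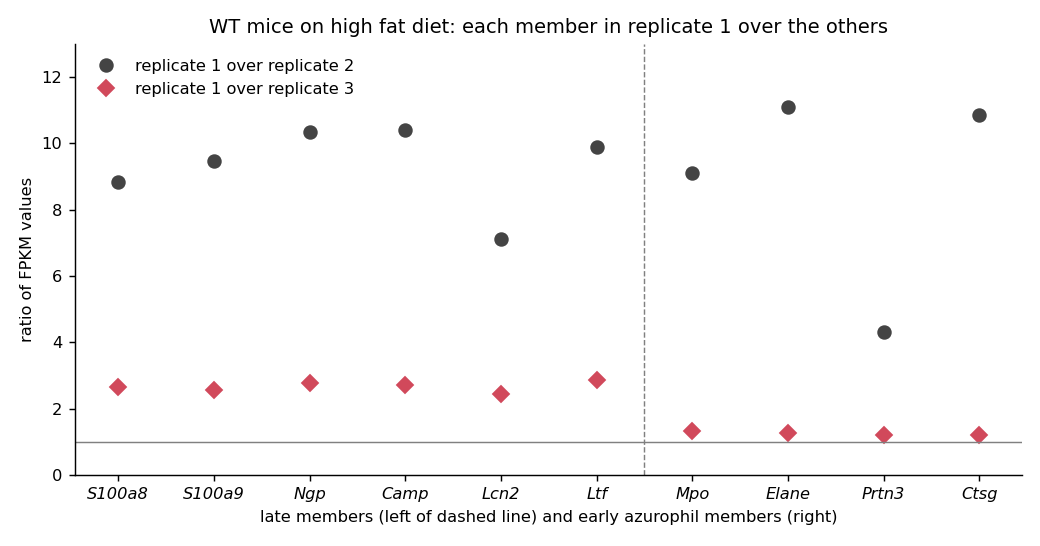
FPKM of each member in WT high fat replicate 1 divided by that in replicate 2 (circles) and in replicate 3 (diamonds), with a grey line at a ratio of 1 and 1 mouse per replicate. Against replicate 3 the late members lie at 2.43 to 2.85 and the early members at 1.21 to 1.33, while against replicate 2 both classes lie near 10 apart from Lcn2 and Prtn3.

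Other genes of the granulocyte line were high in the same libraries in part. Of 19 genes of gelatinase granules and mature neutrophils 18 were listed (not Ly6g) and 6 passed the filter. Of the 6, 0 were called by limma in any comparison of diet or genotype. By diet in WT mice 3 of the 6 were higher at an unadjusted p under 0.05, as were 4.42% of the 11945 genes tested. Retnlg, a resistin-like gene of mature neutrophils, was 37.3, 3.47 and 18.0 FPKM in WT high fat and 0.216 to 7.25 FPKM in the other 9 libraries. Of the 18, 13 were highest in WT high fat replicate 1 and 9 did not overlap between the WT diets in the higher direction. Of the 11945 genes tested, which include only 6 of the 18, 6.2% did not overlap in that direction. Among the 3 with the highest means the others were Hp, haptoglobin, and the integrin gene Itgam, both highest in KO high fat replicate 2. Hp was 7.45, 41.7 and 78.7 FPKM in WT high fat libraries and 183 FPKM in KO high fat replicate 2. The 18 genes summed to 81.5, 53.1 and 115 FPKM in WT high fat and 95.9, 192 and 155 FPKM in KO high fat libraries. Most of each KO high fat sum was Hp, at 86.8, 183 and 149 FPKM, so these sums do not describe the rest of the list. Stfa1 was listed at 0 throughout.

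Of 8 other genes of immature granulocytes 2 passed the filter and 0 were called by limma. By diet in WT mice 1 was higher at an unadjusted p under 0.05, where 4.42% of all genes tested were. Of the 8, Chi3l3, Fcnb and Cebpe were highest in WT high fat replicate 1 and Ms4a3 in WT high fat replicate 3, whereas Myb and Gfi1 were highest in KO chow replicate 1, Hdc in KO chow replicate 3 and Cd63, which many cells make, in KO high fat replicate 2. The chitinase-like Chi3l3 was 20.7, 1.68 and 7.64 FPKM in WT high fat and 0.0361 to 2.63 FPKM elsewhere. Ms4a3, a promyelocyte gene, was 0.330, 0.134 and 0.513 FPKM in the WT high fat group and at most 0.252 FPKM elsewhere. Cebpe, the C/EBP factor of the specific granule stage, was 0.943, 0.0418 and 0.495 FPKM in that group and at most 0.310 FPKM elsewhere. The factors Cebpa, Cebpb, Cebpd, Spi1 and Runx1, which many cells make, all passed the filter and 0 of 5 were called by limma (2 higher at an unadjusted p under 0.05 by diet in WT mice), and none was highest in WT high fat replicate 1.

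Most eosinophil, basophil and erythroid genes were high in the same libraries. Of 10 eosinophil, basophil and mast cell genes 7 were highest in WT high fat replicate 1, among them Prg2, eosinophil major basic protein, at 10.2, 0.489 and 3.85 FPKM in WT high fat and 0 to 1.69 FPKM elsewhere. The mast cell genes Mcpt4, Tpsb2 and Cpa3, with the highest means of the list, were lowest in WT high fat replicate 1. They were 2.76, 2.05 and 1.16 FPKM there, and at least 6.91, 4.59 and 3.65 FPKM in the other libraries. The 10 genes summed to 38.8, 24.4 and 28.4 FPKM in WT high fat and 19.1 to 70.3 FPKM elsewhere. The 10 erythroid genes listed summed to 3371, 1575 and 2477 FPKM in WT high fat and 570 to 1763 FPKM elsewhere, with 9 of them highest in WT high fat replicate 1. The 3 erythroid rows with the highest means, the joint rows of Hba-a1 and Hba-a2 and of Hbb-b1 and Hbb-b2 and the heme synthesis gene Alas2, were 1.34 to 1.36 times as high in WT high fat replicate 1 as in replicate 3. Over the whole list this ratio ran from 0.891 (Epor) to 2.06 (Rhag), and over the 7 eosinophil and basophil genes from 2.06 to 6.06, so the lists reach beyond the ranges of the early and of the late members. The part of blood left in the muscle was not tested.

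By summed level several lists were not highest in the WT high fat libraries. The 8 proliferation genes, led by Ccna2, Birc5 and Top2a, summed to between 2.08 and 7.87 FPKM. By diet in WT mice 0 of 8 were higher without overlap, where 6.2% of the 11945 genes tested were, which include only 2 of the 8. A count of 0 among 8 genes cannot be told apart from that share. The 9 monocyte and macrophage genes, led by Lyz2, Csf1r and Cd68, summed to 138, 116 and 161 FPKM in WT high fat and to 99.1 to 373 FPKM in the other groups. The 7 megakaryocyte and platelet genes, led by Pf4, Ppbp and Itga2b, summed to 18.9, 19.3 and 29.6 against 18.5 to 36.7 FPKM. Their sum was mostly Pf4, and of the 7 genes 4 were highest in WT high fat replicate 3 and 1 in WT high fat replicate 1. The mature B and T cell genes, high in KO chow replicates 1 and 3, were 6.07 FPKM or less in the WT high fat libraries. The summed level of the 7 immature B cell genes, led by Vpreb3, Igll1 and Vpreb1, was highest in KO chow replicate 1 (5.04 FPKM, against 2.50 FPKM in WT high fat replicate 1). So was that of the 5 adipocyte genes, led by Fabp4, Adipoq and Cidec, at 3207 FPKM. No gene of these lists was called by limma in WT mice by diet, where 1 platelet gene was higher and 1 macrophage gene lower at an unadjusted p under 0.05. Of the 11945 genes tested, 528 were higher and 442 lower at that limit.

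**Figure D5:**
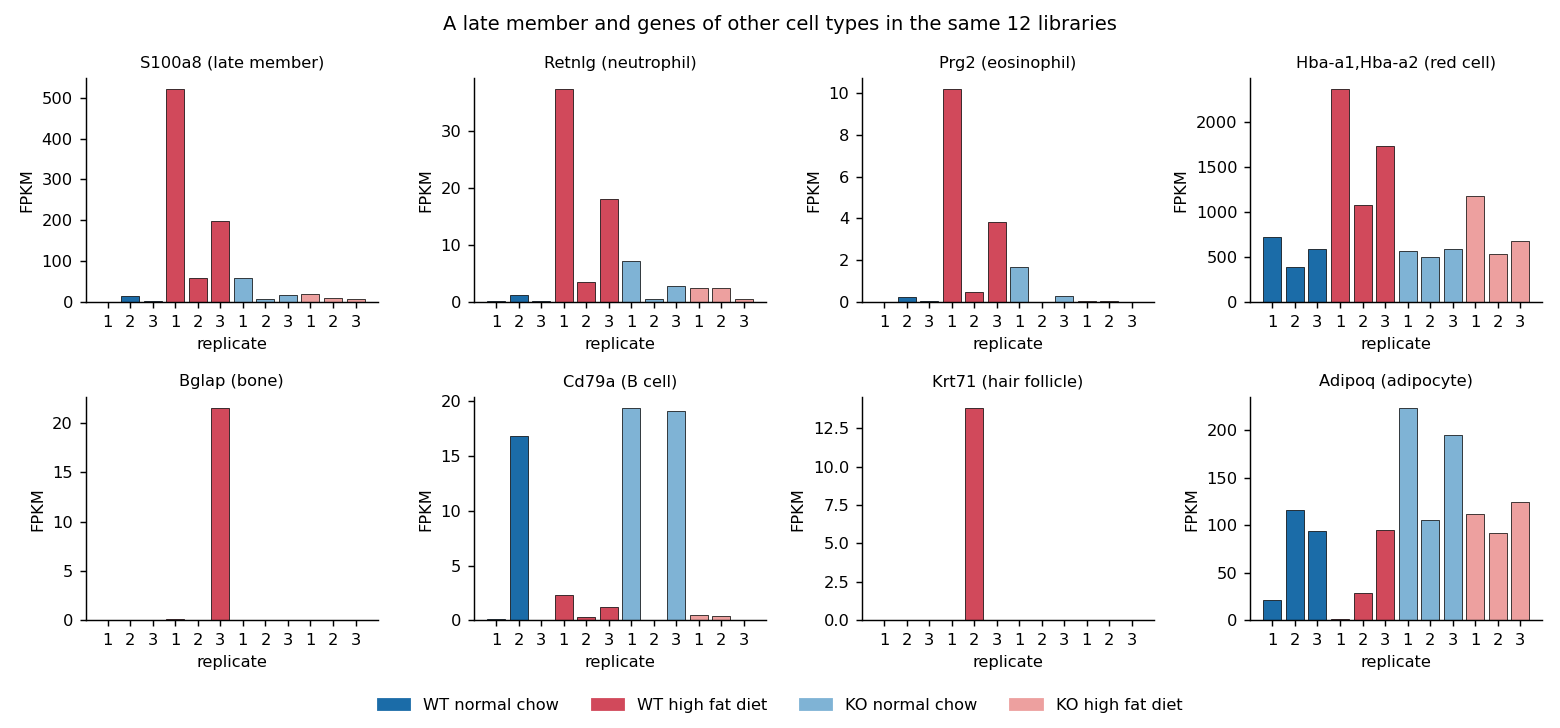
FPKM, from 0, of the late member S100a8 and of 7 genes of other cell types in the 12 libraries, with bars numbered by replicate and coloured by group. Retnlg and Prg2 follow S100a8 with their 2 highest bars in WT high fat replicates 1 and 3, whereas Bglap (21.5 FPKM) stands in WT high fat replicate 3, Krt71 (13.8 FPKM) in WT high fat replicate 2 and Cd79a in WT chow replicate 2 and KO chow replicates 1 and 3.

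Across the 12 libraries and 12155 symbols with at least 1 FPKM in at least 2 libraries, the genes most like the early sum by Pearson's r of log2(FPKM + 1) were Retnlg (0.965), Chi3l3 (0.963), Prg2 (0.960), Pln (0.938), Fpr2, Ppbp and Pglyrp1 (all 0.932), Slc4a1 (0.926), Cd177 (0.925) and Mmp8 (0.919). The 10 most like the late sum began with Retnlg (0.961), Chi3l3 (0.956), Pglyrp1 (0.955), Slc4a1 (0.931) and Ifitm6 (0.912), and 9 of the 10 were in both lists. Most of these are neutrophil genes, but Prg2 is an eosinophil gene, Slc4a1 the red cell anion exchanger and Ppbp a platelet chemokine. Pln, phospholamban, is a calcium pump inhibitor of slow and cardiac muscle and ran only from 1.40 to 3.04 FPKM. The points share groups and libraries and the 2 highest libraries weigh in each, so these values are a description.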

How the data were processed

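Per the labels, libraries were made from total muscle RNA with an Illumina TruSeq RNA kit, and the study's methods name paired-end sequencing. The submitters' processing notes name TopHat2 2.0.8b, Cuffdiff 2.1.1 and mm10. The authors deposited 1 table of FPKM values per library, 23179 rows with a symbol and a value, and no counts, so depth and counting error are unknown. Repeated symbols were reduced to the row with the highest mean. Groups followed the titles. Differences were tested with limma 3.58.1 (R 4.3.3, trended variance, 4 group means, 8 residual degrees of freedom, Benjamini-Hochberg over all 11945 genes tested) on log2(FPKM + 1), a scale that understates changes of low genes. The script was tested on simulated data. Members, gene lists and tests were chosen with earlier results of these data known. The genes named were all members, Cryab and Hspb2, the 3 members of each list with the highest mean, those at 0 throughout, and the 10 most like each sum; others named were chosen after their values were seen. The methods call the samples independent, but nothing more says what the replicates share. Same-numbered libraries did not deviate together, so no pairing was used. Gene positions came from GENCODE M21 and motif windows from RefSeq. Alternatives were another pseudocount, no filter, a replicate block, the genotype field, only the groups compared, median-of-ratios scaling, each library left out, and, added after seeing the data, leaving out the 3 libraries high in B and T cell genes and the early share without Prtn3.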

Additional observations from a re-analysis of the deposited data

How the results depend on the processing

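With the titles as groups, members kept their sign in 108 of 108 refitted differences for diet in WT mice, 103 of 108 for diet in KO mice (the other 5 without the 3 libraries high in B and T cell genes), 108 of 108 for each genotype comparison and 153 of 153 for the interaction. The count of members called stayed 0 except when 1 library was left out, where it ran from 0 to 8 for diet in WT mice and from 0 to 6 for genotype on high fat diet, the highest in both without WT high fat replicate 2. With the genotype field, which puts the WT high fat libraries with KO, members differed by -0.08 to 1.27 for diet in WT and by 0.51 to 2.90 for genotype on high fat diet, against the titles and the Cryab levels.

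Genes called numbered 12, 0, 7, 13 and 0 for diet in WT, diet in KO, the 2 genotype comparisons (chow first) and the interaction. With no filter they were 6 for diet in KO, 24 for genotype on high fat diet and 1 for the interaction. With the replicate block they were 7, 4 and 5 for diet in WT, genotype on chow and genotype on high fat diet, with 0 members called, and correlations of same-numbered deviations between -0.81 and 0.39 gave no pairing. With the genotype field these 3 were 0, and with only the groups compared they were 3, 4 and 8, with 7 for diet in KO. Leaving out each library gave 1 to 32, 0 to 4, 4 to 14, 4 to 82 and 0 to 1, and leaving out the 3 libraries high in B and T cell genes, an alternative added after seeing the data, gave 1 for diet in WT. The causes were not tested.

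Without S100a8 and S100a9 the mean early share was 17.6% in WT chow, 6.23% in WT high fat, 17.1% in KO chow and 20.1% in KO high fat, with WT high fat the lowest. Without Prtn3, an alternative added after seeing the data, it was 1.14%, 1.10%, 2.08% and 1.04% in the same order, with KO high fat the lowest. The planned difference of mean log2 values is on another scale and was set against no share. The early members rest on values near 1 FPKM or below, whose error without read counts is unknown.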
